A study of Zea mays with 6 samples.

Results

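The 2 genes described here are teosinte branched1 (tb1, gene ID Zm00001d033673) and grassy tillers1 (gt1, gene ID Zm00001d028129) of maize (Zea mays). They were chosen by name and ID, by a rule that uses no measured value, and they are 2 of 46272 gene IDs in the count tables. The count tables and the RefSeq gene table at hand do not pair names with IDs of this kind, so both names are those of the rule that chose the genes. Messenger RNA was sequenced from whole developing ears of 2 to 3 mm length, from ra3;tpp4 double mutants (3 libraries) and from wild-type (WT) plants of the inbred line B73 (3 libraries). Both genotypes were grown in the field and the series design calls the replicates biological. The sources used here name neither the mutant alleles nor the inbred background of the double mutant nor the number of ears in a library, so effects of the mutations and of the genetic background cannot be told apart.

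tb1 encodes a transcription factor of the TCP family that holds back the outgrowth of axillary buds. Its higher expression in maize than in the wild ancestor teosinte is tied to the loss of side branches during domestication. gt1 encodes a homeodomain-leucine zipper transcription factor that also represses bud growth, in tillers at the base of the plant and in the lateral shoots that bear ears, and that suppresses the carpels of tassel flowers. In maize tiller buds, normal gt1 expression requires tb1, and it rises in shade. ra3 (RAMOSA3) encodes a trehalose-6-phosphate phosphatase that limits branching of the inflorescence, and tpp4 encodes another enzyme of that family. Genetic work in maize has also placed ra3 beside gt1 in the control of tiller number and carpel suppression. The comparison below asks how the 2 growth repressors were expressed in ears mutant for both phosphatase genes.

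Both genes were well detected in all 6 libraries. The gt1 level was higher in every ra3;tpp4 library than in every WT library, at 1.92-fold in the fit of all libraries, but the mutant libraries differed widely among themselves. The tb1 difference was smaller in size, at 1.15-fold in the mutant, and tb1 varied little between replicates. Neither difference passed the test across all gene IDs, and the edgeR adjusted p was 0.247 for tb1 and 0.280 for gt1. Levels are given as CPM, counts scaled to a library of 1000000 counts in genes. The counts in genes totalled 19291332 to 25254164 in the ra3;tpp4 libraries and 25815984 to 26752609 in the WT libraries. CPM is not corrected for gene length, so the levels of tb1 and gt1 are not compared with each other.

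gt1, the homeodomain-leucine zipper repressor of buds and carpels, had 1381, 2766 and 1004 counts in ra3;tpp4 replicates 1, 2 and 3, against 881, 1093 and 1052 counts in WT replicates 1, 2 and 3. These counts correspond to 57.4, 109.5 and 52.0 CPM in the ra3;tpp4 libraries and to 34.0, 40.9 and 40.7 CPM in the WT libraries. All mutant libraries thus lay above all WT libraries, and ra3;tpp4 replicate 2 lay far above the other mutant libraries. The lowest mutant library was 1.27 times the highest WT library. At these counts the gap was larger than the counting error: the 95% Poisson interval of the lowest mutant library was 48.9 to 55.4 CPM and that of the highest WT library was 38.5 to 43.4 CPM. Over the 9 pairs of a mutant and a WT library, the ratio ran between 1.27 and 3.22. A group order of this kind, with every mutant library above every WT library, was found for 8.55% of the 21127 gene IDs tested. In a whole ear, more cells that express a gene and more RNA in each such cell cannot be told apart.

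The gt1 level averaged 72.99 ± 31.8 CPM in ra3;tpp4 and 38.6 ± 3.90 CPM in WT (SD, n = 3 each). The difference of the means was 34.4 CPM, and an exact permutation test gave p = 0.1, two-sided, the smallest value that 3 libraries against 3 can give. In the edgeR quasi-likelihood fit the log2 fold change was 0.94 (SE 0.308), with a 95% interval of 0.17 to 1.72, or 1.12-fold to 3.29-fold. The unadjusted p was 0.0257 and the Benjamini-Hochberg adjusted p over all IDs was 0.280, so gt1 was not called. The same test called 1.47% of the IDs, and 0.918% as higher in ra3;tpp4. By size alone, 2.102% of the tested IDs had a log2 fold change at least as high as that of gt1.

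**Figure D1:**
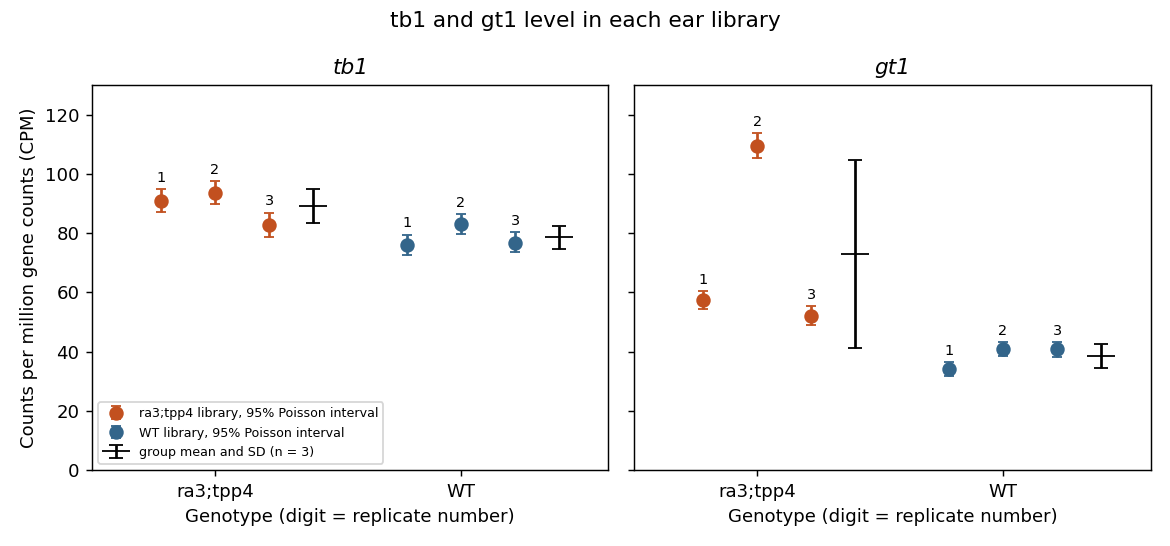
Level of tb1 (left) and gt1 (right) in CPM for each library, with 95% Poisson intervals for counting error and the group means with SD beside them (n = 3). For gt1 the ra3;tpp4 libraries lie at 52.0 to 109.5 CPM and the WT libraries at 34.0 to 40.9 CPM, whereas for tb1 they lie at 82.8 to 93.7 CPM and at 76.1 to 83.0 CPM.

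The spread of gt1 came mainly from ra3;tpp4 replicate 2. Its gt1 level was 1.91 times that of the next mutant library, and the coefficient of variation of gt1 was 43.5% in ra3;tpp4 and 10.1% in WT. The biological coefficient of variation fitted for gt1 was 25.7%, against 9.26% for IDs of its abundance. Among all tested IDs, 16.98% varied at least as much as gt1 by this measure. The same library also stood apart in the data as a whole: on principal component 1, which held 37.2% of the variance, it lay at 49.3, against 14.05 and 14.2 for the other mutant libraries and -30.8 to -22.6 for the WT libraries. The excess of gt1 in replicate 2 over the mean of the other mutant libraries was 0.97 on the log2 scale, and 4.35% of the tested IDs had an excess at least as high.

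Without ra3;tpp4 replicate 2 the gt1 difference was smaller and passed the test. The remaining mutant libraries averaged 54.7 CPM, which is 1.42 times the WT mean. The fitted log2 fold change was 0.54 (SE 0.105, edgeR adjusted p = 0.0169). More IDs were called in that fit as a whole, 471 of 21402 tested, against 310 of 21127 with all libraries. Leaving out ra3;tpp4 replicate 1 or 3 gave log2 fold changes of 1.08 and 1.12 with edgeR adjusted p of 0.324 and 0.166. Leaving out WT replicate 1, 2 or 3 gave 0.85, 0.99 and 0.98, with edgeR adjusted p of 0.591, 0.437 and 0.470. The value for gt1 was above 0 in all 6 of these fits and passed the threshold in 1 of them. Whether replicate 2 differs from the other mutant libraries in ear stage, dissection or growth was not tested.

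**Figure D2:**
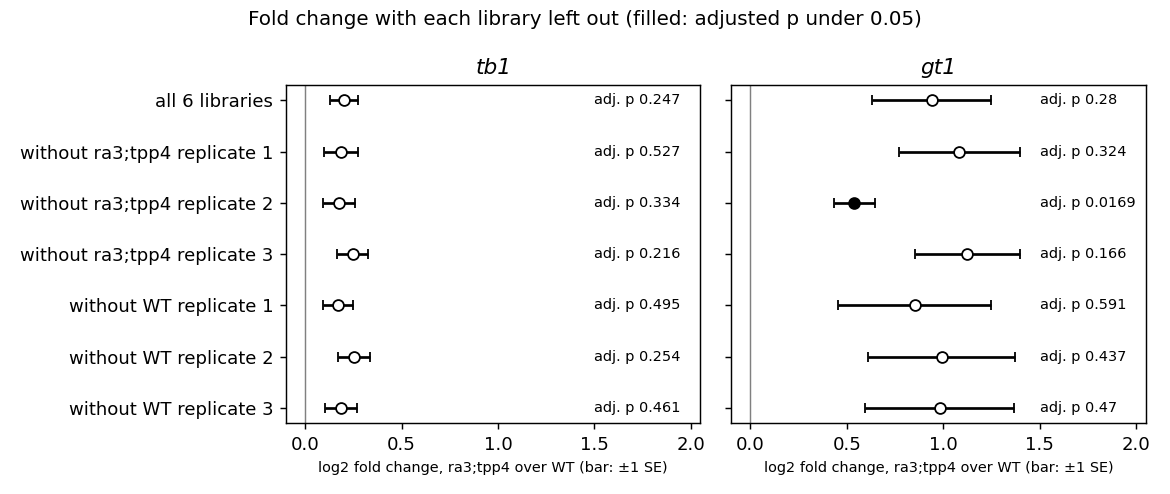
Log2 fold change of tb1 (left) and gt1 (right), ra3;tpp4 over WT, with all libraries and with each library left out in turn. Points are edgeR estimates, bars are ±1 SE, and the 1 filled point, gt1 without ra3;tpp4 replicate 2 at 0.54, is the fit with an adjusted p under 0.05.

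tb1, the TCP factor that represses bud outgrowth, had 2187, 2366 and 1597 counts in ra3;tpp4 replicates 1, 2 and 3, against 1968, 2221 and 1983 counts in WT replicates 1, 2 and 3. Scaled to library size, these are 90.9, 93.7 and 82.8 CPM in the ra3;tpp4 libraries, against 76.1, 83.0 and 76.8 CPM in the WT libraries. The genotypes met at one point: ra3;tpp4 replicate 3 lay just below WT replicate 2, and in the other 8 of 9 pairs the mutant library was higher. The 95% Poisson intervals of these 2 libraries, 78.8 to 86.9 CPM in the mutant and 79.6 to 86.5 CPM in WT, overlapped almost wholly. When the libraries were scaled by TMM, the order of this pair turned. With 84.3 CPM in ra3;tpp4 replicate 3 and 83.4 CPM in WT replicate 2, whether the groups overlap depends on the scaling. The share of all IDs whose groups separate under TMM was not computed.

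The tb1 level averaged 89.1 ± 5.66 CPM in ra3;tpp4 and 78.6 ± 3.82 CPM in WT (SD, n = 3 each), and the exact permutation test gave p = 0.2, two-sided. The fitted log2 fold change was 0.20 (SE 0.0735), with a 95% interval of 0.04 to 0.37, or 1.03-fold to 1.29-fold. The unadjusted p was 0.0188 and the edgeR adjusted p was 0.247, so tb1 was not called either. An unadjusted p under 0.05 was found for 13.4% of all tested IDs. An unadjusted edgeR p at or below that of tb1 was found for 7.60% of them, and at or below that of gt1 for 9.20%. By size alone, 16.5% of the tested IDs had a log2 fold change at least as high as that of tb1. The interval bounds the size of any tb1 difference in these libraries at well under a doubling, in contrast to that of gt1, which reaches beyond 3-fold. tb1 varied little between replicates, with a coefficient of variation of 6.36% in ra3;tpp4 and 4.86% in WT. Its fitted biological coefficient of variation was 7.58%, against 8.71% for IDs of its abundance, and ra3;tpp4 replicate 2 exceeded the mean of the other mutant libraries by 0.08 on the log2 scale.

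**Figure D3:**
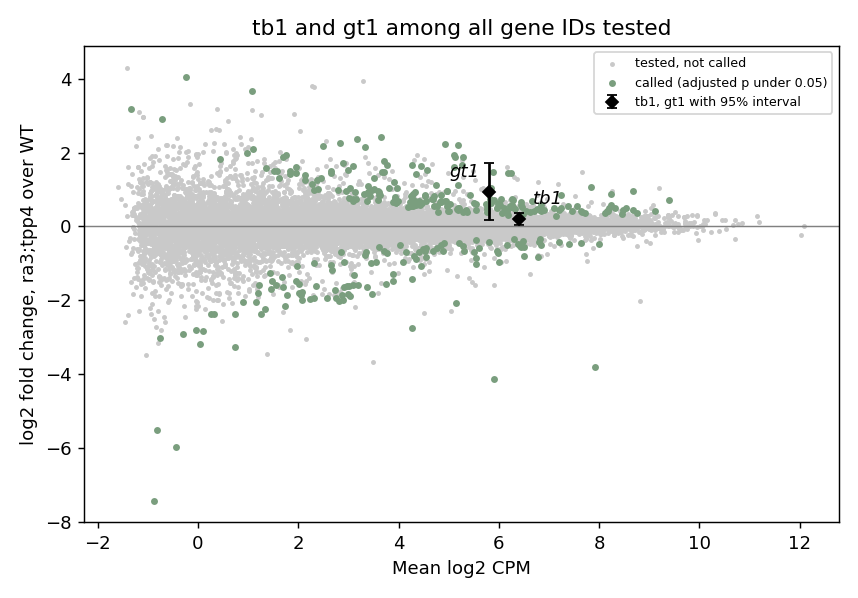
Log2 fold change (ra3;tpp4 over WT) against mean log2 CPM for the 21127 gene IDs tested, with called IDs in green and tb1 and gt1 as black diamonds with 95% intervals. tb1 lies at 0.20 within the band of IDs that were not called, and gt1 lies at 0.94, above most IDs of its abundance, with a wide interval.

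The change of the 2 genes was also compared within each library, where library size and scaling cancel. For each gt1 count there were 1.58, 0.855 and 1.59 tb1 counts in ra3;tpp4 replicates 1, 2 and 3, against 2.23, 2.03 and 1.88 tb1 counts in WT replicates 1, 2 and 3. These ratios also carry the lengths of the 2 genes, so they are compared only between libraries. All 3 mutant values lay below the lowest WT value, and ra3;tpp4 replicate 2 had the lowest. The ratio carries the order of the gt1 levels given above, so it is not a separate result. How often ratios of other IDs separate the groups was not computed. The log2 ratio of tb1 to gt1 counts averaged 0.37 ± 0.515 in ra3;tpp4 and 1.03 ± 0.123 in WT (SD, n = 3 each). The difference of these means, -0.66, had an exact permutation p of 0.1, two-sided, again the smallest possible with 3 libraries against 3. Without ra3;tpp4 replicate 2 the difference was -0.37 (exact permutation test, p = 0.2).

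**Figure D4:**
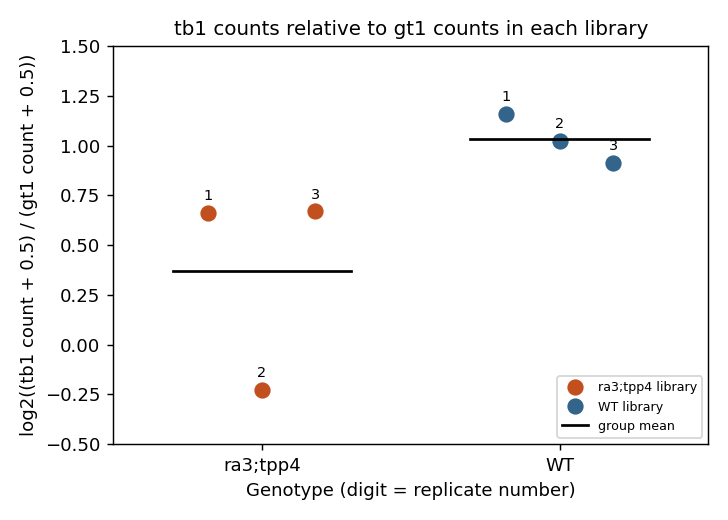
Log2 ratio of tb1 counts to gt1 counts in each library, with group means as lines. The ra3;tpp4 libraries lie between -0.23 and 0.67 and the WT libraries between 0.91 and 1.16.

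The libraries differed in where their records went, and this moved with genotype. Alignments that were not unique made up 11.05% to 15.3% of the counts over all lines in ra3;tpp4 and 19.3% to 22.2% in WT. With all lines as the CPM denominator in place of gene counts, gt1 stood at 43.9, 82.5 and 40.5 CPM in ra3;tpp4 replicates 1, 2 and 3 and at 22.5, 28.1 and 26.7 CPM in WT replicates 1, 2 and 3. On that denominator tb1 stood at 69.6, 70.6 and 64.4 CPM in the ra3;tpp4 libraries and at 50.3, 57.2 and 50.3 CPM in the WT libraries, without overlap. Counts in genes made up 75.3% to 77.7% of all lines in ra3;tpp4 and 65.5% to 68.9% in WT. This denominator thus raises every ID in the mutant libraries relative to WT, and the lack of overlap is not particular to tb1. How many of all IDs separate the groups on it was not computed. The tb1 to gt1 ratio is the same on any denominator. The part of the shares of lines in genes and of alignments that were not unique in the values of the 2 genes was not tested beyond this.

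The IDs numbered next to each gene were examined as local context, with the 10 nearest tested IDs on each side. Over all IDs, 1.47% were called in edgeR, 4.01% in DESeq2 and 1.61% in limma-voom, and 13.4% had an unadjusted edgeR p under 0.05. Of the 20 around gt1, 0 were called in edgeR, 2 in DESeq2 and 1 in limma-voom. Of these 20, 5 had an unadjusted edgeR p under 0.05, 4 of them higher in ra3;tpp4, and the lowest adjusted p was 0.0625. Their median log2 fold change was 0.02, with 11 values above 0 and 9 below. Of the 20 around tb1, 0 were called in edgeR, 1 in DESeq2 and 0 in limma-voom. Of these 20, 6 had an unadjusted edgeR p under 0.05, 2 of them higher in ra3;tpp4, and the lowest adjusted p was 0.0881. Their median was -0.08, with 9 values above 0 and 11 below, and the median over all tested IDs was -0.00218. Neighbouring numbers were not taken to be neighbouring positions.

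The IDs with the most similar pattern were sought by the root mean square difference in log2 CPM over the 6 libraries, after each ID was centred on its own mean, among IDs within 1 log2 unit of the gene's level. For gt1 the nearest of 6660 IDs was Zm00001d014168, at a difference of 0.124, where the median ID lay at 0.562. Zm00001d014168 had 60.0, 115.3 and 46.2 CPM in ra3;tpp4 replicates 1, 2 and 3. In WT replicates 1, 2 and 3 it had 38.0, 38.2 and 36.7 CPM. Its high value in ra3;tpp4 replicate 2 follows from its choice by likeness to gt1 over these same libraries. Its log2 fold change was 0.99 (edgeR adjusted p = 0.328). For tb1 the nearest of 5215 IDs was Zm00001d018177, at 0.0170, where the median ID lay at 0.150. Zm00001d018177 had 67.8, 67.8 and 60.5 CPM in the ra3;tpp4 libraries and 54.7, 61.0 and 55.7 CPM in the WT libraries (log2 fold change 0.22, edgeR adjusted p = 0.262). tb1 and gt1 were themselves 0.450 apart. Of the IDs compared with gt1, 6.04% were nearer to it than tb1 was, and of those compared with tb1, 99.0% were nearer to it than gt1 was. The measure also carries how much each gene varied. The root mean square spread about its own mean was 0.550 for gt1 and 0.122 for tb1. Both shares thus reflect the wide spread of gt1 and do not show a shared pattern. The count tables do not name Zm00001d014168 or Zm00001d018177.

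**Figure D5:**
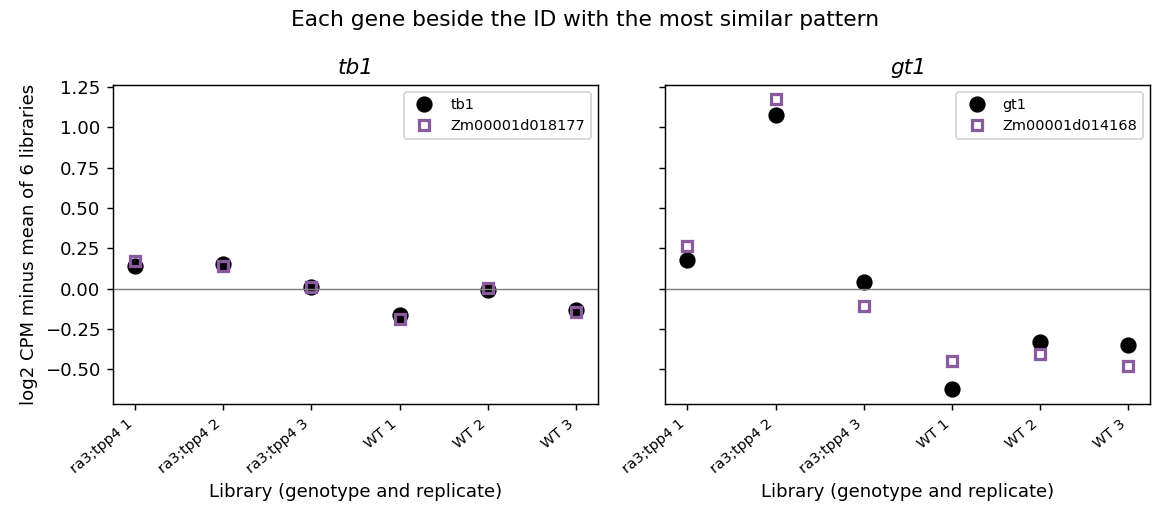
Log2 CPM of tb1 (left) and gt1 (right), each minus its mean over the 6 libraries (black circles), beside the ID with the most similar pattern (open squares). Each such ID was chosen for its likeness over these same libraries. gt1 and Zm00001d014168 both reach their highest value, 1.08 and 1.17, in ra3;tpp4 replicate 2. tb1 and Zm00001d018177 stay within -0.19 and 0.17 in all libraries.

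Other genes of the pathway could not be set beside tb1 and gt1. Of 13 symbols listed for it, among them the tb1 target tassels replace upper ears1, strigolactone and phytochrome genes, ra3 and tpp4, 9 appeared in the RefSeq gene table and 0 could be tied to an ID of the count tables. For the same reason the mutated genes and the markers of ear tissue were not checked against the labels.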

How the data were processed

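The authors deposited a table of raw read counts by gene ID for each of the 6 libraries. Trimmomatic 0.36, HISAT2 2.1.0, HTSeq and the B73 RefGen_v4 build are named, per the submitters' processing notes. The sources used here give no parameters, annotation release or strand setting, so a count could include or lack reads from a gene that overlaps it on either strand. The 5 HTSeq summary lines held 22.3% to 34.5% of the counts over all lines. They were left out of every total and test, except where all lines served as the CPM denominator.

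Counts were tested with edgeR 4.0.16 (quasi-likelihood F test, robust, TMM scaling, filterByExpr) in R 4.3.3, over 21127 IDs in 1 fit of the 6 libraries with Benjamini-Hochberg adjustment and a threshold of 0.05. Both genes passed the filter. Each standard error is the fold change over the root of its F statistic, and intervals are for 1 gene alone. Single values were compared by exact permutation tests. Ratios used a pseudocount of 0.5, and similar patterns used TMM-scaled log2 CPM with a prior count of 2. Poisson intervals cover counting error only.

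Alternatives were DESeq2 1.42.0, limma-voom (limma 3.58.1), other scalings and filters, a fit that is not robust, Zm00001d IDs only, the replicate number as a block and leaving out each library. The bias-adjusted edgeR fit was added after seeing the data. The rule that named the genes uses no measured value. Even so, the genes, the lists and the rule for similar IDs were chosen with earlier results of these data known. The rule for similar IDs takes the 2 nearest to each gene, of which 1 each is printed because the IDs have no names.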

Additional observations from a re-analysis of the deposited data

How the results depend on the processing

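Over 17 alternatives each, the log2 fold changes of tb1 and gt1 stayed above 0. That of tb1 ran between 0.17 and 0.25 (adjusted p 0.216 to 0.527) and was called in none of edgeR, DESeq2 or limma-voom. That of gt1 ran between 0.87 and 0.95 outside the fits that left out a library (adjusted p 0.0996 to 0.458) and between 0.54 and 1.12 within them, and it was called only without ra3;tpp4 replicate 2. DESeq2 gave gt1 an adjusted p of 0.115 and limma-voom 0.121. No pairing by replicate number was found. Deviations from the group mean of the ra3;tpp4 and WT libraries that share a number had correlations of -0.181, -0.123 and 0.154, and for 2 of 6 libraries the partner of the same number was the nearest. In the fit with a replicate block, the log2 fold change was 0.20 for tb1 (edgeR adjusted p = 0.309) and 0.87 for gt1 (edgeR adjusted p = 0.169), 290 IDs were called in place of 310, and the difference in the tb1 to gt1 ratio was -0.66 (exact sign-flip test, p = 0.25, the smallest possible). The count of called IDs, 310, was 846 in DESeq2 and 511 with no filter on low counts, and 58 (without WT replicate 3) to 471 (without ra3;tpp4 replicate 2) with 1 library left out. The cause was not tested. Leaving out 1 library gave gt1 differences of 16.2 to 44.9 CPM, tb1 differences of 8.21 to 13.7 CPM and ratio differences of -0.81 to -0.37, with the smallest gt1, tb1 and ratio differences all without ra3;tpp4 replicate 2. With 3 libraries a group, the exact permutation tests cannot pass 0.05. The half-width of the 95% counting interval was 3.74% to 6.66% of each count, so counting error can set the order of libraries as close as ra3;tpp4 replicate 3 and WT replicate 2 for tb1.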
